A study of Mus musculus with 12 samples.

Results

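Fos, Jun, Dusp1 and Btg1 are 4 genes of the early response to growth and stress signals, followed here by symbol in both deposited tables of a Usp7 study. The tables list 3326 genes in all. The knockdown table has 1 row for each of the 4 genes, and the overexpression table used here has no row for any of them. The cells were female germline stem cells (FGSCs) of C57BL/6 mice, which are cultured germ cells of the ovary. The 12 libraries form 4 groups of 3, namely Usp7 knockdown, its control, Usp7 overexpression and its control. Usp7 is a deubiquitinase, an enzyme that takes ubiquitin off other proteins. The labels do not name the knockdown or overexpression constructs, nor say how the replicates of a group were obtained. The p-values below therefore reflect scatter between libraries that may be technical.

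Immediate early genes are switched on within minutes of a signal, without new protein synthesis, and their short-lived messenger RNAs disappear soon after. MAP kinases reach many of them through the serum response factor SRF and through factors of the CREB and ATF family. Fos and Jun are leucine zipper proteins that pair to form the transcription factor AP-1, and Jun also pairs with itself or with ATF proteins. Dusp1 is a nuclear phosphatase that switches MAP kinases off again, and so closes the loop. Btg1 is an antiproliferative protein that brings the CCR4-NOT complex, which shortens messenger RNA tails, to its targets, and it is usually abundant in resting cells.

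The stretch just before each gene's start is shown as a description, since such stretches can carry binding sites of early response factors. Any link between these letters and the listed direction of the 4 genes was not tested. The sequences are the 250 bases before the start in RefSeq (GRCm38.p6), read 5′ to 3′ on the gene's strand. Fos lies on the plus strand of chromosome 12 and its stretch is chr12:85473640-85473889. Jun is on the minus strand at chr4:95052223-95052472, Dusp1 on the minus strand at chr17:26508473-26508722, and Btg1 on the plus strand at chr10:96616751-96617000. Capitals mark CRE cores (TGACG, either strand), the full CRE with its 1-base variant (TGACNTCA) and TATA boxes (TATAAA).
Fos: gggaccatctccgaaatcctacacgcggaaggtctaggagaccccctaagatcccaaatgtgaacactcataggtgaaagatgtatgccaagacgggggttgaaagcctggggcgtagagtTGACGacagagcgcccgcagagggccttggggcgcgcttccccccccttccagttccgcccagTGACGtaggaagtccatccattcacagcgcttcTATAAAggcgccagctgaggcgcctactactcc
Jun: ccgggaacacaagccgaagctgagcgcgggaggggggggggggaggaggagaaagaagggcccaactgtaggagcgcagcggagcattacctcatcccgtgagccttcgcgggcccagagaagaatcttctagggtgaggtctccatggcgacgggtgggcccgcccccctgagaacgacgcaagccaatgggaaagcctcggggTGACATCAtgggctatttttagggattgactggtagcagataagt
Dusp1: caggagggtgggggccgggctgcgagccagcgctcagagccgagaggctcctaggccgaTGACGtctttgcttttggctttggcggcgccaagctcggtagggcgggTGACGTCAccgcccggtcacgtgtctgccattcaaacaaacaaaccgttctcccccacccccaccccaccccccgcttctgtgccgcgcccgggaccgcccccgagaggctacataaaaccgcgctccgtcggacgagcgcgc
Btg1: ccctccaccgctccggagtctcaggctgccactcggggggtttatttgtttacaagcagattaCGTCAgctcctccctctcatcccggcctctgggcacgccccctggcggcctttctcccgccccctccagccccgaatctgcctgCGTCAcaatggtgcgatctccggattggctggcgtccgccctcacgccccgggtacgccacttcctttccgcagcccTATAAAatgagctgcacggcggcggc

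A CRE core, part of the site that CREB and ATF proteins bind, occurred in 3 of the 4 stretches (Fos, Dusp1 and Btg1). It occurred in 17.8% of all 32851 RefSeq promoters over the same 250 bases. The full palindrome TGACGTCA was found in Dusp1, from 143 to 136 bases before the start, and in 1.55% of all promoters. Jun had TGACATCA from 45 to 38 bases before its start, which fits the pattern TGACNTCA that also covers the full CRE and was present in 7.49% of promoters. A TATA box stood in Fos and Btg1 (12.4% of promoters), a CCAAT box (CCAAT) in Jun and Btg1 (33.8%), an E-box (CACGTG) in Dusp1 (6.02%), and a MEF2 site, searched as 1 fixed consensus, in Jun (0.103%). The AP-1 site TGANTCA (6.75%) and the serum response element, searched by its name's pattern (1.47%), had no match in these 4 windows. All motifs were searched on both strands, a match is a description of letters, and no match says only that the letters are not in this window. The guanine and cytosine content was 58.4% for Fos, 61.2% for Jun, 68.4% for Dusp1 and 65.2% for Btg1. The median over all promoters was 52.4%, and the motif shares above were not matched for this content.

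**Figure D1:**
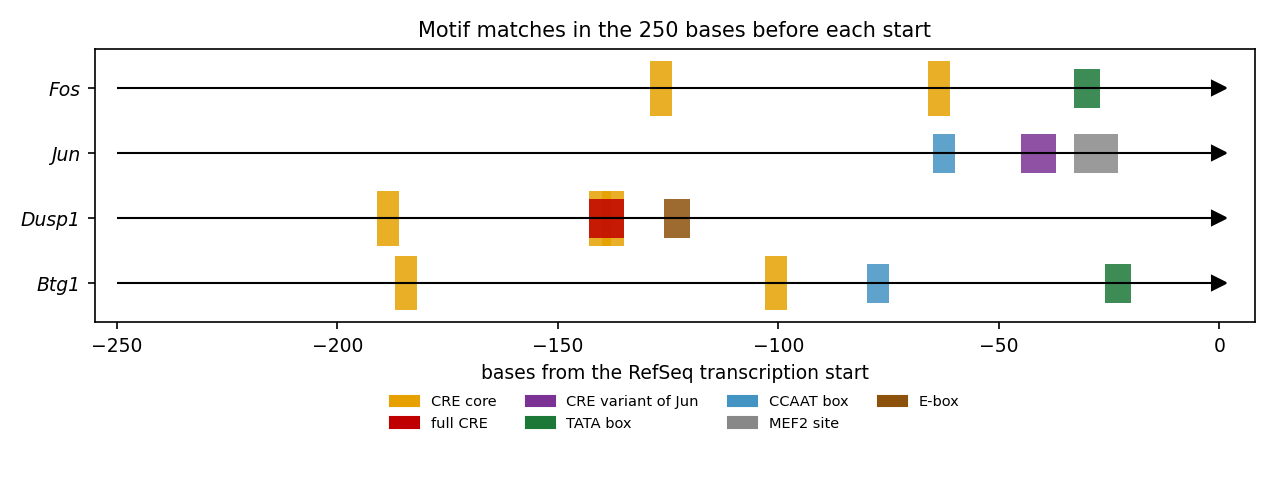
Motif matches in the 250 bases before the start of Fos, Jun, Dusp1 and Btg1 (x axis: bases from the RefSeq start; each colour is 1 motif; taller boxes are CRE cores). CRE cores lie in Fos, Dusp1 and Btg1, and the Dusp1 boxes meet in the full CRE from 143 to 136 bases before the start.

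The knockdown table is a selection: the authors listed a transcript only with an adjusted p under 0.05 and a fold of at least 1.5 in their own test. From the ratio of adjusted to raw p-values, 12385 transcripts had been tested, of which 3156 were listed (25.5%), 1710 of them lower (13.8%) and 1446 higher (11.7%). All 4 genes stood among the lower ones. Because they were picked with these results known, that count is a description and nothing is read from it. Library columns hold normalized counts, which are reads per transcript divided by 1 size factor per library. Usp7 itself has no row in either table, so the knockdown could not be checked from its own transcript. Listed normalized counts summed to 5.38e6 to 5.52e6 per knockdown library and 3.01e6 to 3.22e6 per control library, with 58.7% to 65.3% and 51.5% to 53.6% of them from the ribosomal RNA precursor Rn45s. Total depth is unknown. In knockdown control replicate 2, 143 listed transcripts exceeded both other controls by more than 2 log2 units, while no transcript did so in either of those. Where it moves a value of the 4 genes, the value without it stands beside.

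Fos (NM_010234, chr12:85473890-85477274, 4 exons, protein-coding), the inducible partner in AP-1, had 33.3, 38.2 and 38.8 normalized counts in knockdown replicates 1 to 3, against 72.7, 140.3 and 78.4 in their controls. Every knockdown library was below every control library, while control replicate 2 stood well above the other controls. Behind these values were 32, 49 and 28 reads in knockdown and 89, 162 and 64 in control. Fos averaged 36.7 ± 3.04 in knockdown and 97.1 ± 37.5 in control (SD, n = 3 each), and fell by 1.32 on the log2 scale (± 0.25 SE, limma with Benjamini-Hochberg adjustment, BH, adjusted p = 0.000869). Without control replicate 2 it fell by 1.02 (limma with BH, adjusted p = 0.000971).

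Jun (NM_010591, chr4:95049036-95052222 on the minus strand, 1 exon, protein-coding), the partner that can also act without Fos, had 265, 302 and 371 normalized counts in knockdown and 954, 912 and 876 in control. The 3 knockdown libraries were spread more widely than the controls and lay far below them. These values rest on 255, 387 and 268 reads in knockdown and on 1168, 1053 and 715 in control. Jun averaged 313 ± 54.0 in knockdown and 914 ± 39.3 in control (SD, n = 3 each), and fell by 1.56 on the log2 scale (± 0.13 SE, limma with BH, adjusted p = 2.1e-05). Without control replicate 2 the value was the same to 2 decimals. The annotated antisense gene Junos overlaps Jun, and the sources used here do not state whether counting used strand. Without strand, reads of Jun and Junos cannot be told apart.

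Dusp1 (NM_013642, chr17:26505591-26508472 on the minus strand, 4 exons, protein-coding), the phosphatase that dampens MAP kinase signals, had 26.0, 26.5 and 31.9 normalized counts in knockdown and 67.8, 91.8 and 62.5 in control. The groups did not overlap, and control replicate 2 was again the highest library. The values come from 25, 34 and 23 reads in knockdown and 83, 106 and 51 in control, the fewest of the 4 genes. Dusp1 averaged 28.1 ± 3.26 in knockdown and 74.0 ± 15.6 in control (SD, n = 3 each), and fell by 1.35 on the log2 scale (± 0.20 SE, limma with BH, adjusted p = 0.000235). Leaving out control replicate 2 gave a drop of 1.19 (limma with BH, adjusted p = 0.00076).

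Btg1 (NM_007569, chr10:96617001-96622813, 2 exons, protein-coding), the antiproliferative adaptor of the CCR4-NOT complex, had 103, 95.1 and 66.5 normalized counts in knockdown and 450.1, 508 and 478 in control. The lowest control library was 4.37 times the highest knockdown library, the widest gap of the 4 genes. In reads this was 99, 122 and 48 in knockdown and 551, 587 and 390 in control. Btg1 averaged 88.2 ± 19.2 in knockdown and 479 ± 29.1 in control (SD, n = 3 each), and fell by 2.45 on the log2 scale (± 0.17 SE, limma with BH, adjusted p = 1.0e-05), to 18.4% of the control mean. Jun stood at 34.2% of its control mean, Fos at 37.8% and Dusp1 at 38.0%. The annotation also names the copies Btg1-ps1 and Btg1-ps2, and reads shared with them would make the Btg1 value uncertain.

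**Figure D2:**
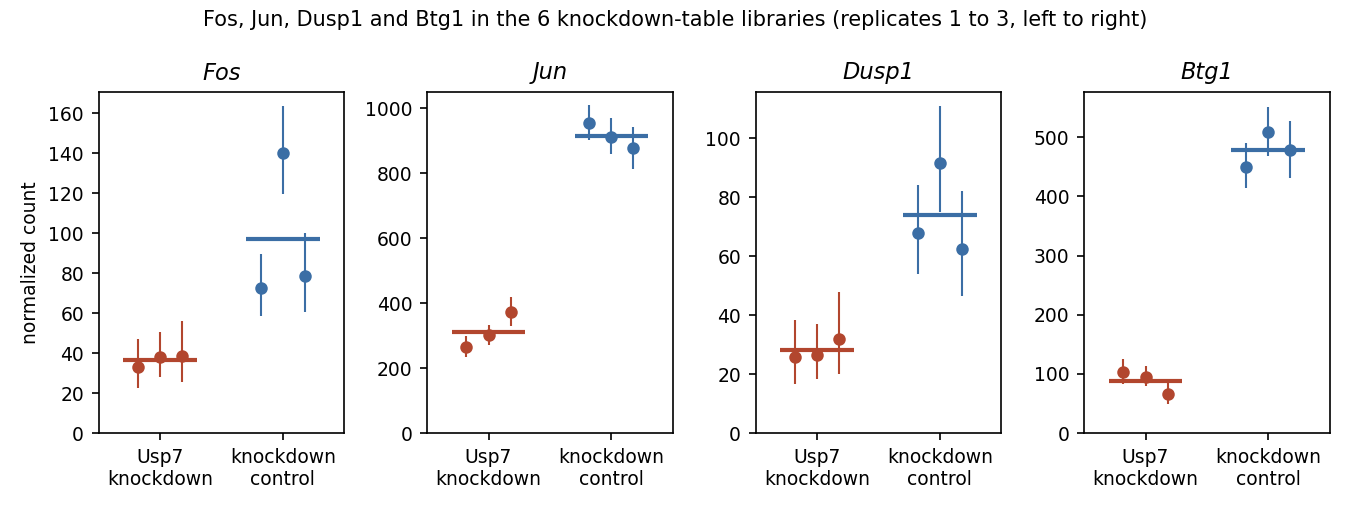
Normalized counts (y axis, from 0) of Fos, Jun, Dusp1 and Btg1 in the 3 Usp7 knockdown libraries (left) and the 3 knockdown control libraries (right), replicates in order; points are libraries, bars are 95% exact Poisson intervals of the reads, and lines are group means. No knockdown point reaches a control point for any gene, and control replicate 2 is the highest for Fos (140.3) and Dusp1 (91.8).

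The limma fit passed 99.9% of the 2902 listed transcripts it tested, 50.7% as lower and 49.1% as higher. Knockdown and control libraries did not overlap for 98.4% of the 3156 listed transcripts, 52.8% of them with knockdown lower. The passing tests and separate groups of the 4 genes are thus shared by nearly all listed transcripts, and only their sizes differ. By the authors' log2 fold, counted from the deepest drop, Btg1 ranked 307 among the 1710 listed lower transcripts, Jun 727, Dusp1 933 and Fos 939. Apart from Btg1, the genes thus sat near the middle of the listed decreases. The authors' deposited table gave log2 folds of -2.42 ± 0.18 for Btg1, -1.55 ± 0.15 for Jun, -1.41 ± 0.33 for Dusp1 and -1.41 ± 0.35 for Fos (SE).

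For Jun and Btg1 the knockdown libraries varied more, with coefficients of variation of 17.3% for Jun and 21.7% for Btg1 in knockdown, against 4.30% and 6.08% in control. Read counting alone would give 5.91% and 10.8% in knockdown, and 3.25% and 4.50% in control. Jun was highest in knockdown replicate 3, the library in which Btg1 was lowest. Fos had 8.26% in knockdown and 38.6% in control, beside counting errors of 17.1% and 9.89%. Dusp1 had 11.6% in knockdown and 21.1% in control, beside 19.7% and 11.3%. Control replicate 2 was the highest control for both. Controls 1 and 3 alone gave 5.32% for Fos and 5.80% for Dusp1, below the counting errors of the 3 controls. Leaving out the most extreme library narrows any spread, so these lower values do not show where the wider spread came from. In normalized counts, the Poisson interval of Fos in control 2 was 119.5 to 163.6. It lay above those of control 1 (58.4 to 89.5) and control 3 (60.4 to 100.1). The Dusp1 interval of control 2 (75.1 to 111.0) overlapped those of control 1 (54.0 to 84.1) and control 3 (46.5 to 82.1). The knockdown spread of Fos and Dusp1 was no wider than counting error, and differences among their knockdown libraries were not detectable at this depth.

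Per kilobase of transcript, Jun was the most abundant of the 4 in both groups, at a mean of 98.0 normalized counts per kb in knockdown and 287 in control. In knockdown, Btg1 at 17.6 per kb (13.3 to 20.6), Fos at 17.4 (15.8 to 18.4) and Dusp1 at 14.1 (13.1 to 16.0) overlapped one another. In control, Btg1 came next at 95.7 per kb, with libraries from 90.0 to 102, above Fos at 46.1 (34.5 to 66.5) and Dusp1 at 37.2 (31.4 to 46.1), which overlapped each other. That overlap came from control replicate 2, since in controls 1 and 3 Fos had 34.5 and 37.2 per kb and Dusp1 34.1 and 31.4. The ranges of Btg1 and of Fos and Dusp1 thus overlapped in knockdown and were separate in control.

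Ratios between genes within a library depend on how libraries are scaled only through the 1 added to each value, and Jun served as the common denominator. The log2 ratio of Btg1 to Jun, on values plus 1, was -1.36, -1.66 and -2.46 in knockdown and -1.08, -0.84 and -0.87 in control. The groups did not overlap, and the mean was 0.89 log2 units lower in knockdown (exact permutation test, two-sided, p = 0.1, BH-adjusted over 3 ratios p = 0.3, with 3 of 3 libraries lower). For Fos to Jun the log2 ratios were -2.96, -2.95 and -3.23 in knockdown and -3.70, -2.69 and -3.47 in control. For Dusp1 to Jun they were -3.30, -3.46 and -3.50 in knockdown and -3.80, -3.30 and -3.79 in control. Both overlapped between groups through control replicate 2 alone, with means 0.24 higher for Fos to Jun (exact permutation test, p = 0.6, adjusted p = 0.6) and 0.21 higher for Dusp1 to Jun (exact permutation test, p = 0.4, adjusted p = 0.6). Without that library every knockdown ratio was above both controls, and the difference was 0.54 for Fos to Jun and 0.37 for Dusp1 to Jun (exact permutation test, p = 0.2 each, the smallest that 3 against 2 can give). The exact test of 3 against 3 cannot go below p = 0.1, so none of these tests could pass.

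Other early response genes were read from a list of 62, of which 13 (21.0%) had a row in the knockdown table, beside 25.5% of all transcripts tested. Of these, 9 fell, which is 14.5% of the list beside 13.8% of all transcripts, and 4 rose, which is 6.45% beside 11.7% (limma with BH). The share that fell was thus near that of all transcripts. Their median log2 fold was -1.09, beside -0.61 over all 2902 tested. The authors' listing left out small folds, and nearly as many of the 2902 were higher as lower. The median of all thus lay at the edge of the gap left by that listing. The median of the 13 lay among the lower genes because 9 of them fell. No deeper drop of early response genes is read from these medians. Without control replicate 2 the same numbers fell and rose. Of the 9 that fell, Atf3, Btg2 and Plk2 were under 10 normalized counts in every knockdown library and entered the fit through their controls, so they had to differ, and the size of their folds depends on the pseudocount. How many of the unlisted genes the authors tested is not known.

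Among 21 transcription factors other than Fos and Jun, 5 fell (23.8%, beside 13.8% of all transcripts) and 1 rose (4.76%, beside 11.7%). Atf3, a stress-induced AP-1 relative, had 4.16, 0.78 and 1.39 normalized counts in knockdown and 197, 175 and 202 in control (log2 fold -6.10 ± 0.37 SE). The Krüppel-like factors Klf4 (-1.36 ± 0.21) and Klf6 (-1.11 ± 0.11), and the zinc finger factor Egr4 (-1.09 ± 0.21), fell by amounts near those of Fos and Dusp1. Egr1 fell by 0.73 (± 0.23), and by 0.45 without control replicate 2, where it had 406 normalized counts against 216 and 231 in the other controls. Srf, the factor that binds the serum response element of Fos, rose by 0.87 (± 0.17, but 0.06 and not past the threshold with libraries scaled to column totals). It had 1214, 1535 and 2062 normalized counts in knockdown and 860.2, 844 and 872 in control. The column totals cover only listed transcripts, and scaling to them moved the median log2 fold of all tested transcripts by -0.81.

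Among 41 signalling and secreted early genes other than Dusp1 and Btg1, 4 fell (9.76%, beside 13.8% of all transcripts) and 3 rose (7.32%, beside 11.7%). Btg2, the nearest relative of Btg1, had 9.35, 4.68 and 4.16 normalized counts in knockdown and 23.7, 109 and 25.7 in control. Its log2 fold of -2.63 ± 0.57 SE became -1.94 without control replicate 2. Ctgf, a matrix-associated growth factor (-1.68 ± 0.43, and -1.17 without that library), the polo-like kinase gene Plk2 (-1.54 ± 0.37, and -1.25 without it) and the nuclear factor Ier2 (-0.89 ± 0.15) also fell. Hbegf, a ligand of the EGF receptor, rose by 1.66 (± 0.21, and 0.86 with column totals), with 97.7, 97.4 and 109 normalized counts in knockdown and 33.5, 39.8 and 23.3 in control. The salt-inducible kinase gene Sik1 (0.67 ± 0.14) and the ERK phosphatase gene Dusp6 (0.60 ± 0.10) also rose, but with column totals turned to -0.14 for Sik1 and -0.21 for Dusp6. Neither passed with column totals without Rn45s (0.21 for Sik1 and 0.13 for Dusp6) or with no library scaling (0.55 and 0.47).

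**Figure D3:**
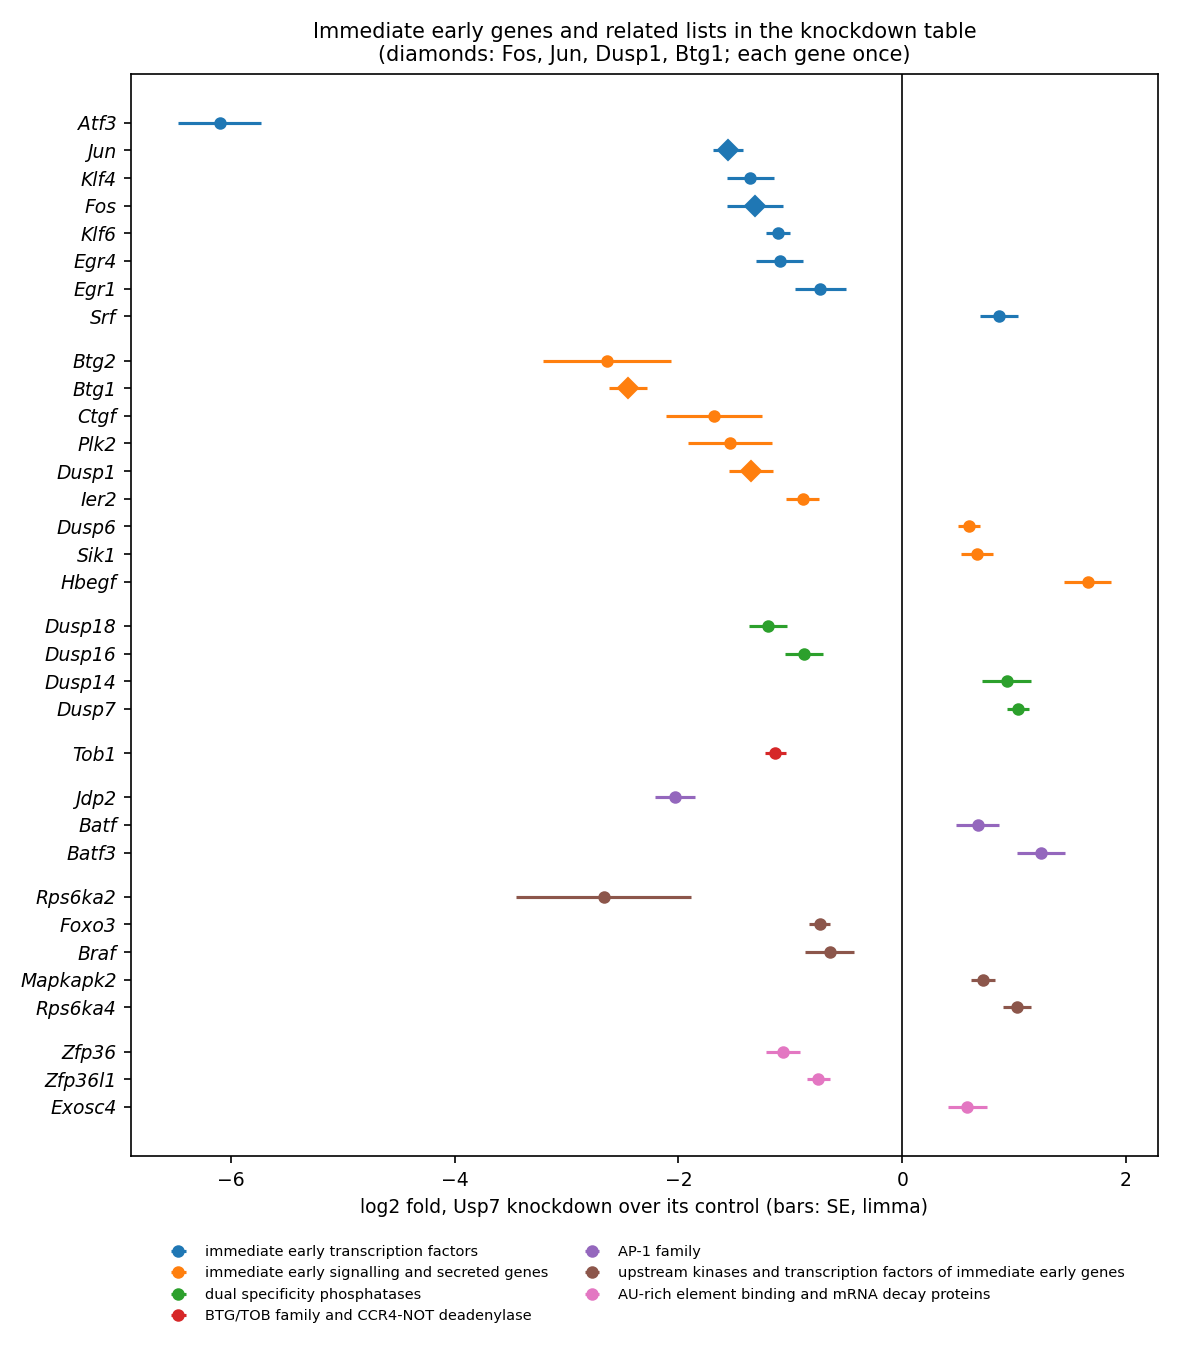
Log2 fold (x axis, Usp7 knockdown over its control, with SE bars, n = 3 each) of the tested members of 7 gene lists, each gene drawn once and coloured by list; diamonds are Fos, Jun, Dusp1 and Btg1. Most early response genes lie left of 0 and Srf, Hbegf, Sik1 and Dusp6 to the right; Sik1, Dusp6, Batf, Mapkapk2 and Exosc4 turn negative when libraries are scaled to column totals.

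Relatives of the 4 genes did not share 1 direction. Of 17 AP-1 family genes other than Fos and Jun, 4 were listed (23.5%, beside 25.5% of all transcripts). Beside Atf3, the repressor Jdp2 fell (-2.03 ± 0.18), while Batf3 (1.24 ± 0.22) and Batf (0.68 ± 0.19, but -0.13 under column totals and not past the threshold without Rn45s or without scaling) rose. Of 19 dual specificity phosphatases other than Dusp1, 2 fell (10.5%, beside 13.8% of all transcripts) and 3 rose (15.8%, beside 11.7%). Dusp18 (-1.20 ± 0.17) and the JNK and p38 phosphatase Dusp16 (-0.88 ± 0.17) fell with Dusp1, while the ERK phosphatase Dusp7 (1.03 ± 0.10) and Dusp14 (0.93 ± 0.22) rose along with Dusp6. Batf3 (0.44), Dusp7 (0.22) and Dusp14 (0.13) stayed positive but did not pass under column totals, and Dusp14 did not pass without Rn45s (0.47) or without scaling (0.81) either. Of 16 BTG/TOB proteins and CCR4-NOT subunits other than Btg1, the BTG/TOB genes Btg2, Tob1 and Btg4 were listed as lower (18.8%, beside 13.8% of all transcripts). Tob1 had 256, 248 and 241 normalized counts in knockdown and 573, 517 and 549 in control (-1.13 ± 0.10). Btg4 was too low for the fit, at 0.78 to 4.16 normalized counts in knockdown and 8.99 to 22.5 in control.

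Of 44 upstream kinases and factors, 6 were listed (13.6%), beside 25.5% of all transcripts tested. The p38 target kinase gene Mapkapk2 (0.72 ± 0.11) and the MSK kinase gene Rps6ka4 (1.02 ± 0.13) rose with Srf, but under column totals Mapkapk2 was at -0.09 and Rps6ka4, at 0.21, did not pass. Mapkapk2 did not pass without scaling either (0.60). Braf, which starts the ERK cascade (-0.65 ± 0.22), Foxo3, a factor of resting cells (-0.74 ± 0.09), and the RSK gene Rps6ka2 (-2.67 ± 0.78, and -2.07 without control replicate 2) fell, Rps6ka2 with every knockdown value under 10. Braf did not pass with median-of-ratios scaling (limma with BH, adjusted p = 0.105) or without control replicate 3 (adjusted p = 0.0602). Of the 14 feedback inhibitors of ERK signalling, 1 was listed (7.14%), Dusp6. Of 16 AU-rich element and decay proteins, 3 were listed (18.8%). Zfp36, which speeds the decay of early response messenger RNAs (-1.07 ± 0.15), and Zfp36l1 (-0.75 ± 0.10) fell. The exosome subunit gene Exosc4 rose (0.58 ± 0.17), but was at -0.23 under column totals and did not pass without Rn45s (0.12) or without scaling (0.46).

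The early response genes formed a graded range in how high they stood in control replicate 2. Its value was 1.86 times the mean of the other controls for Fos and 1.41 times for Dusp1, but 0.997 for Jun and 1.10 for Btg1. The ratio was 4.42 for Btg2, 2.97 for Ctgf, 1.87 for Plk2 and 1.81 for Egr1. Hbegf and Sik1, which rose, had 1.40 and 1.27. A ratio of at least 1.5 was reached by 5 of the 17 listed early genes, the 4 included (29.4%), beside 342 of the 1710 listed lower transcripts and 12.1% of all 3156. The same library was high in some collagen and contractile transcripts. Col1a1, a collagen of fibroblasts, had 43.7, 49.9 and 69.3 normalized counts in knockdown and 170, 735 and 185 in control, and Acta2, smooth muscle actin, had 72.8, 67.0 and 115 in knockdown and 187, 722 and 162 in control. Of 14 fibroblast and feeder markers 6 were listed (42.9%, beside 25.5% of all transcripts). These 6 summed to 8242 to 9893 normalized counts in knockdown and 5897 to 7589 in control, most of it Vim. In that list the collagen genes Col1a1, Col1a2, Col5a1 and Col6a1 fell. Col5a1 had only 2.08, 7.79 and 5.54 in knockdown, against 32.7, 180 and 25.7 in control. It entered the fit through its controls, so it had to differ. Vim, an intermediate filament, had 6572, 6725 and 7661 in knockdown and 4398, 4461 and 4521 in control, and S100a4 had 1540.4, 1855 and 2056 in knockdown and 1106, 985 and 883 in control, so neither was high in control replicate 2. Of 10 endothelial and smooth muscle markers 4 were listed (40.0%). These 4 summed to 114 to 166 in knockdown and to 249, 1022 and 239 in controls 1 to 3. Such sums cover only listed markers, which were selected for differing between these groups. The part of RNA from other cells in the Fos and Dusp1 values was not tested, and fewer cells of a type cannot be told apart from less RNA per cell in such bulk samples.

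**Figure D4:**
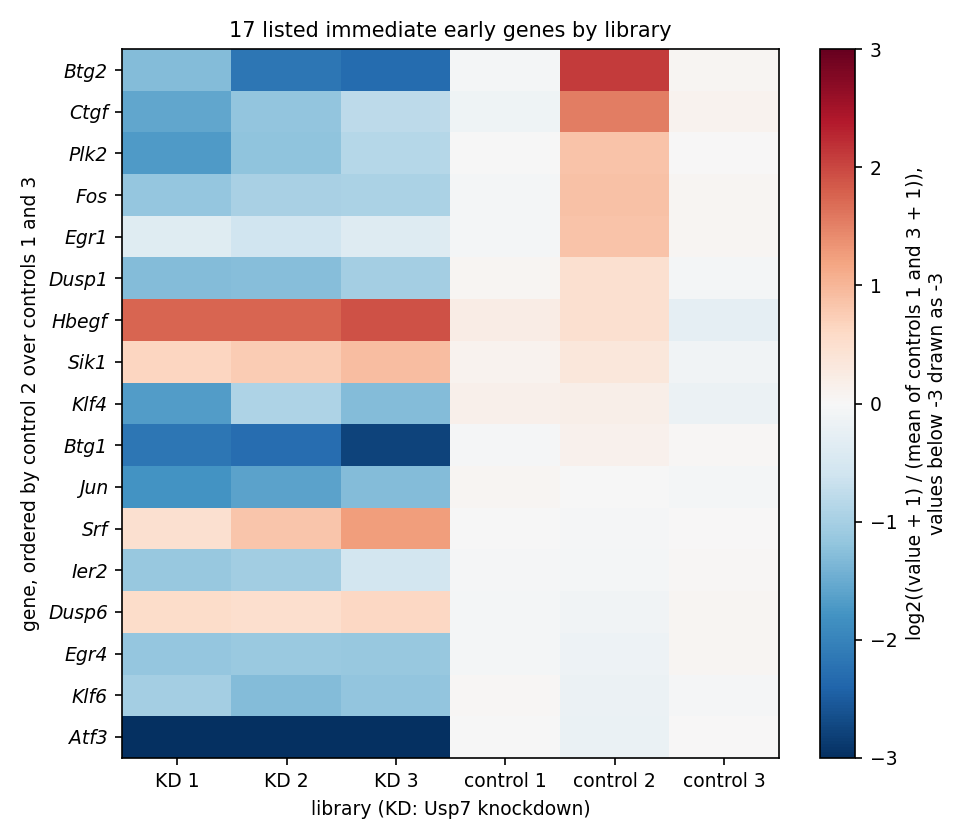
The 17 listed early response genes (rows) in the 3 knockdown and 3 control libraries (columns), as log2 of each value plus 1 over the mean of controls 1 and 3 plus 1; rows are ordered by control 2. Btg2, Ctgf, Plk2, Fos and Egr1 are high in control 2 (ratios of 1.81 to 4.42), while Jun (0.997) and Btg1 (1.10) are not.

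Transcripts whose profile over the 6 libraries was most like that of each gene were also named. Likeness is the correlation of log2 values across 2 groups of 3, so it mostly reflects the shared group difference, and it is given as a description among 1733 listed transcripts with a mean of at least 100 (1732 for Jun and Btg1, which are themselves among them). For Fos the closest were the collagen genes Col4a2 (Pearson 0.995), Col6a1 (0.994) and Col1a1 (0.991), and 119 transcripts reached 0.9. For Jun they were Lrrc27, the mitochondrial gluconeogenesis gene Pck2 and the dynein regulator Tcte1 (0.999 each), with 470 at 0.9 or more. For Dusp1 they were Smim14, Iqcg of the cilium axoneme and the non-muscle myosin gene Myh10 (0.989 to 0.991), with 429. For Btg1 they were the atypical cyclin gene Ccng2, Sbf2 and 1700001L05Rik (0.997 each), with 455. No 2 of the 4 genes shared a named transcript, but only 3 were named per gene while 119 to 470 reached 0.9. Nothing is read from that.

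In the overexpression table, 648 of 12605 tested transcripts were listed (5.14%), 3.29% higher and 1.85% lower. The limma fit passed 100% of the 613 it tested, 65.3% as higher and 34.7% as lower, and the groups did not overlap for 99.8% of the 648, 36% with overexpression lower. Fos, Jun, Dusp1 and Btg1 had no row there, and their response to overexpression was not analysed here. Of the 66 early response genes, 4 were listed (6.06%), 2 lower (3.03%) and 2 higher (3.03%). Atf3 had 4.55, 23.0 and 2.72 normalized counts in overexpression and 50.3, 34.4 and 51.8 in its control (log2 fold -2.53 ± 0.58 SE, n = 3 each). Phlda1, a pleckstrin domain protein, had 141, 151 and 224 in overexpression and 299, 306 and 278 in control (-0.80 ± 0.19). Id2, an inhibitor of helix-loop-helix factors, was higher, with 518, 544 and 505 in overexpression and 358, 330.3 and 327 in control (0.62 ± 0.14), but with median-of-ratios scaling it was lower (-0.60) and with TMM it did not pass (-0.13). Both scalings used only the listed transcripts, and moved the median log2 fold of all 613 tested by -1.20 and -0.74. Egr4 was too low for the fit, at 9.84 to 20.4 normalized counts in overexpression and 1.01 to 1.85 in control.

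**Figure D5:**
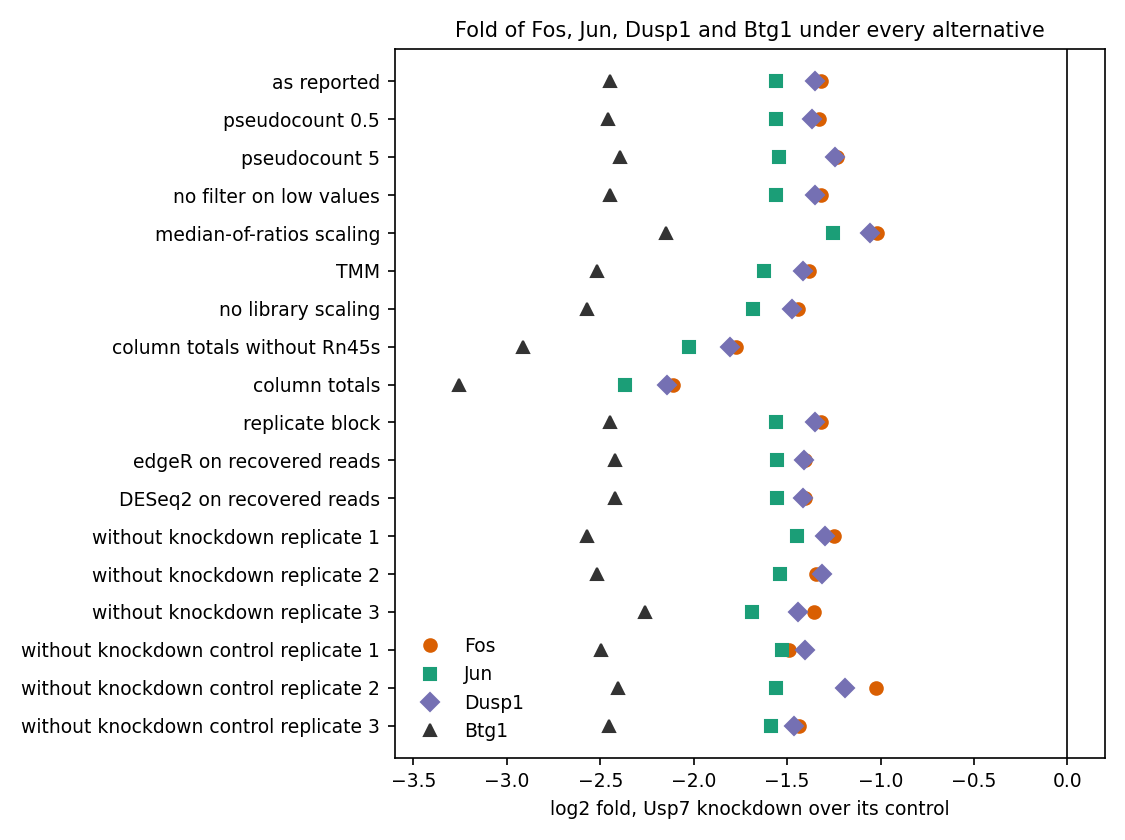
Log2 fold of Fos, Jun, Dusp1 and Btg1 (x axis, Usp7 knockdown over its control) as reported and under each of 17 alternatives (rows). All values stay below 0, between -3.26 and -1.02, and Btg1 is the lowest in every row.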

How the data were processed

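The labels' protocols give Trizol extraction of FGSC RNA and Illumina TruSeq RNA libraries. Bowtie 0.12.2 and the builds mm10 and GRCm38 are named in the submitters' processing notes. Counting tool, strand use and test were not given in the sources used here. Per the file headers and values, the authors deposited normalized counts, a signal that is reads over a size factor, with their log2 fold and SE, a test score, and raw and adjusted p-values. Knockdown values were whole multiples of 1 step per column (100% within 0.001 of a read), which gave reads and size factors of 0.722 to 1.28. For overexpression, 2 columns gave no such step.

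Folds were fitted within each table by limma 3.58.1 (R 4.3.3, variance trend) on log2(normalized count + 1). Transcripts needed at least 10 in at least 3 libraries, and calls an adjusted p under 0.05 (Benjamini-Hochberg). The fit was tested on simulated data. Folds of low transcripts depend on the pseudocount. Poisson intervals (95%, exact) cover counting error only. Replicates of the knockdown table differed by a chi-square per transcript of 2.17 to 36.5, so none was counted as a duplicate. Alternatives changed the pseudocount, filter, scaling, test (edgeR 4.0.16 and DESeq2 1.42.0 on recovered reads), block and libraries. Column totals, TMM and median of ratios were computed from the listed transcripts only, which were selected as changed. Whether folds that turned or stopped passing under them would do so over all transcripts was not tested. Coordinates and promoters are from RefSeq GRCm38.p6 and matched all 4 genes, while exons and transcript lengths are from GENCODE. The rule named the 4 genes, up to 6 listed genes of each list with the largest folds, and the 3 most alike transcripts. Names beyond it were chosen after their values were seen. The genes and lists were chosen with earlier results of these data known.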

Additional observations from a re-analysis of the deposited data

How the results depend on the processing

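All 17 alternatives kept Fos, Jun, Dusp1 and Btg1 lower in knockdown and past the threshold. The authors had listed all 4 as lower in these same libraries, so this was nearly fixed in advance. Over all tested transcripts, lower calls numbered 1472 as reported, 1396 with median of ratios and 1487 with column totals. The log2 folds ranged from -2.11 to -1.02 for Fos (adjusted p from 0.000103 to 0.0038), from -2.37 to -1.25 for Jun, from -2.14 to -1.05 for Dusp1 and from -3.26 to -2.15 for Btg1. Leaving out 1 library at a time gave -1.49 to -1.02 for Fos, -1.69 to -1.45 for Jun, -1.46 to -1.19 for Dusp1 and -2.57 to -2.26 for Btg1. The extremes came from scaling: column totals, which Rn45s dominates, moved the median of all tested transcripts by -0.81, column totals without Rn45s by -0.46, no library scaling by -0.12 and median of ratios by 0.30. Calls numbered 2898 as reported, 50.8% of them lower, and 1756 with column totals, 84.7% of them lower. The lower share was 60.1% with column totals without Rn45s and 67.4% without scaling. Early response genes that fell, the 4 included, numbered 13 under each of the 17 alternatives, a count nearly fixed by the same listing. Those that rose numbered 4, but 1 with column totals, 2 with column totals without Rn45s and 2 without scaling. Each within-library ratio kept its sign, from 0.03 to 0.54 for Fos to Jun, from 0.12 to 0.37 for Dusp1 to Jun and from -1.13 to -0.57 for Btg1 to Jun. Calls in overexpression numbered 613 as reported and 477 to 648 otherwise. The share of lower calls there was 34.7%, 41.0% with TMM and 52.6% with median of ratios. Replicate numbers showed no sign of pairing the libraries (deviations of same-numbered libraries correlated at -0.10 to -0.02 in the knockdown table). A replicate block left the count of calls at 2898. In this balanced design it cannot move a fold, so Fos stayed at -1.32. The adjusted p rose to 0.00118 for Fos, 0.000263 for Jun, 0.00109 for Dusp1 and 0.00012 for Btg1 (limma with BH). Count models and no scaling were not run for overexpression, where 2 columns gave no reads, and Rn45s has no row there.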

Other observations

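Some relatives of the 4 genes were listed in the overexpression table. Jdp2, the AP-1 repressor, had 21.5, 30.6 and 43.4 normalized counts in overexpression and 76.5, 84.2 and 89.7 in its control (log2 fold -1.42 ± 0.27 SE), and it was lower in knockdown too (-2.03 ± 0.18). Dusp18 was higher in overexpression (1.28 ± 0.29, but 0.55 with TMM and 0.10 with median-of-ratios scaling, neither past the threshold) and lower in knockdown (-1.20 ± 0.17). Spred3, an inhibitor of ERK signalling, was lower in overexpression (-0.64 ± 0.16) and had no row in the knockdown table. Whether the 2 responses of Jdp2 and Dusp18 differ was not tested, since the tables were normalized separately.

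Cell type markers were listed in the knockdown table as well. Of 20 germ cell markers 6 were listed, all as lower (30.0% of the 20, beside 13.8% of all transcripts), and the others had no row. The 6 listed markers summed to 899 to 983 normalized counts in knockdown and 1798 to 1965 in control. The largest part was Foxo3, also on the list of upstream factors, with 560, 587 and 518 in knockdown and 893, 919 and 964 in control. Of the 6, Ifitm3 was too low for the fit and high in control replicate 2, with 3.12, 3.12 and 1.39 in knockdown and 5.72, 44.2 and 7.35 in control. Mael, of the piRNA pathway, had 235, 235 and 211 in knockdown and 580.0, 439.9 and 518 in control, and was higher in overexpression, with 217, 158 and 204 against 59.4, 49.9 and 64.7 in its control (log2 fold 1.71 ± 0.20 SE). The 2 listed of 12 blood and immune markers (16.7%, beside 25.5% of all transcripts) summed to 140.3 to 171 in knockdown and 384 to 432 in control. The 2 listed of 12 granulosa and theca markers (16.7%) summed to 373 to 447 in knockdown and 229.5 to 294 in control. Most of that sum was Cyp11a1 (log2 fold 0.82 ± 0.11), while Cyp17a1 had 2.08, 0.78 and 1.39 in knockdown and 2.45, 64.1 and 4.90 in control.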
